A study of Mus musculus with 12 samples.

Results

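The comparison described here was saline 2 h against saline 24 h, that is, control mice killed 2 h after their last saline injection against control mice killed 24 h after it, with no cocaine in either group. It asks what a recent injection and its handling, or the hour of the day, did to the prefrontal cortex (PFC) transcriptome. The mice were male C57BL/6 animals (C57BL/6 J in the methods), 10 weeks old, that had received daily intraperitoneal saline (labelled Chronic_control). The bilateral PFC of 5 mice was pooled for each library, and each group held 2 libraries, so that the comparison rests on 4 of the 12 libraries of the series. The other 4 groups were cocaine at 2 h, 24 h and 7 d and saline at 7 d, from mice of the same strain and age, and they are used only to set the saline values beside.

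The deposited tables give 1 FPKM (fragment number divided by transcript length in kilobases and by sequencing depth) per group and locus, pooled over its 2 libraries, so that the spread between libraries and the depth behind a value are unknown and no test was possible. The 2 saline groups stand in 2 tables that were normalized separately. A gene entered the comparison where its name had a tested locus in both tables and its saline FPKM was at least 1 in both, which held for 12928 genes of the 39929 names in the 3 tables and of the 14549 names tested at both times. Sdk2 lay just inside this limit, at 1.22 FPKM in saline 2 h and 1.00032 in saline 24 h, and Mtmr11 just outside it, at 0.999982 and 1.12 FPKM. Log2 ratios of saline 2 h over saline 24 h were centred on the median of all these genes, which was -0.02 before centring, and 1.5-fold (0.58 on the log2 scale) and 2-fold were used as fixed marks of size.

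Injection and handling reach the cortex as neuronal activity and as stress hormone. Neuronal activity switches on immediate-early genes, whose transcripts appear within minutes and decay within hours, and stress hormone acts through the glucocorticoid receptor. The circadian clock is a separate loop in which CLOCK and ARNTL switch on the Per, Cry, Nr1d and Bhlhe genes through E-box elements, and the Per and Cry proteins then repress them, so that these transcripts cycle with the hour of the day. The injections were given in the morning, and the 2 h groups were therefore killed later in the day than the 24 h groups. Time since injection, hour of the day, the mice and libraries, and the table of each time point cannot be told apart here.

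The tissue carried the transcripts of cortical neurons, with 12 of 12 neuron markers measured. Snap25, a synaptic fusion protein, was at 1479 FPKM in saline 2 h and 1496 in saline 24 h, and Slc17a7, the vesicular glutamate transporter of cortical excitatory neurons, was at 499 and 522 FPKM. Their median log2 ratio was -0.02, and 0 of the 12 were past 1.5-fold.

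Several rapid immediate-early transcripts were lower, not higher, 2 h after saline than 24 h after it. Of 36 listed rapid activity genes 32 were measured, 25 had a ratio below 0, 7 were lower by at least 1.5-fold and 0 were higher, and the median log2 ratio was -0.24. The measured background was 1.55% of the 12928 genes lower and 1.11% higher by at least 1.5-fold. Arc and Dusp1 were lower by at least 2-fold, where the background was 0.58% lower and 0.41% higher. The 7 genes were Arc, Dusp1, Fos, Nr4a1, Junb, Ier2 and Jun.

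The promoters of 3 of them and of the clock gene Ciart are shown because these letters are known to bind activity or clock factors. They are RefSeq sequences on GRCm38.p6, written 5′ to 3′ on the strand of the gene, and positions count from the transcription start. Capitals mark the cyclic AMP response element TGACGTCA and its shorter form TGACG, which activity-regulated CREB binds, and the E-box CACGTG, which CLOCK and ARNTL bind. Both strands were searched, so that TGACG on the other strand reads CGTCA here, and each full element holds the shorter form on both strands. The Fos stretch is chr12:85473750-85473840 on the plus strand, Dusp1 is chr17:26508582-26508672 on the minus strand, Nr4a1 is chr15:101266606-101266816 on the plus strand and Ciart is chr3:95882258-95882358 on the minus strand.
Fos: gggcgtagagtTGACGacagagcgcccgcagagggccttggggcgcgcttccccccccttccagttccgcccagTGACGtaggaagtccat
Dusp1: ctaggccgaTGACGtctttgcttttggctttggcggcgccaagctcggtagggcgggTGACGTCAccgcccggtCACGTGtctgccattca
Nr4a1: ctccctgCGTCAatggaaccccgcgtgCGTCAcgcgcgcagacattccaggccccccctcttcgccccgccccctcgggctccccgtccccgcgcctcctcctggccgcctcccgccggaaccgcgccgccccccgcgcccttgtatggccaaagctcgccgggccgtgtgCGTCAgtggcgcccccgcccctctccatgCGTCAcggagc
Ciart: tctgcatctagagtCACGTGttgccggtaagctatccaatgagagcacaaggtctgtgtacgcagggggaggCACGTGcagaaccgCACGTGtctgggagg

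Fos held TGACG at -129 and -66, Nr4a1 held 4 copies from -233 to -40, and Junb held 1 at -106. Dusp1 held the full element TGACGTCA at -143, another TGACG at -191 and an E-box at -126. Ciart held 3 E-boxes, at -116, -58 and -44, and the promoter of Jun held none of the motifs searched. The search covered the 250 bases before the start and also the CArG box, which serum response factor binds and which none of these genes held there. Over the same window of 32851 RefSeq mouse promoters, 1.55% held TGACGTCA, 17.8% held TGACG, 6.02% held CACGTG and 1.47% held the CArG box. A match is a description of the letters and not evidence that a factor was bound in this tissue.

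Arc, whose protein sits at active synapses and helps remove AMPA receptors, stood furthest apart among these genes. It was at 5.59 FPKM in saline 2 h, 23.2 in saline 24 h and 6.47 in saline 7 d, with a log2 ratio of -2.03 for 2 h over 24 h. Saline 24 h was thus high, while saline 2 h and saline 7 d lay close together. In the cocaine groups Arc was at 77.8 FPKM at 2 h, 54.1 at 24 h and 21.6 at 7 d, above the saline value of the same time each time.

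Dusp1, a phosphatase that switches MAP kinases off, was at 5.85 FPKM in saline 2 h, 11.9 in saline 24 h and 6.14 in saline 7 d. Fos, a subunit of the AP-1 transcription factor, was at 2.02, 3.95 and 1.59 FPKM, and Nr4a1, an activity-induced nuclear receptor, was at 8.05, 15.4 and 8.47 FPKM in the same order. Their log2 ratios of 2 h over 24 h were -1.01, -0.95 and -0.92. For all 3 the saline 24 h value was the high one of the 3 saline values.

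Junb, a partner of Fos in AP-1, was at 11.4 FPKM in saline 2 h, 20.2 in saline 24 h and 12.9 in saline 7 d, with a log2 ratio of -0.80. Ier2, a small nuclear immediate-early protein, was at 2.84, 4.81 and 3.39 FPKM, with a ratio of -0.74. Jun, the main Fos partner, was at 8.80, 14.1 and 12.8 FPKM, with a ratio of -0.65. Jun differed from the other 6 in that its saline 7 d value lay near that of saline 24 h and that its cocaine values, 8.67 FPKM at 2 h and 12.6 at 24 h, were close to those of saline.

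**Figure D1:**
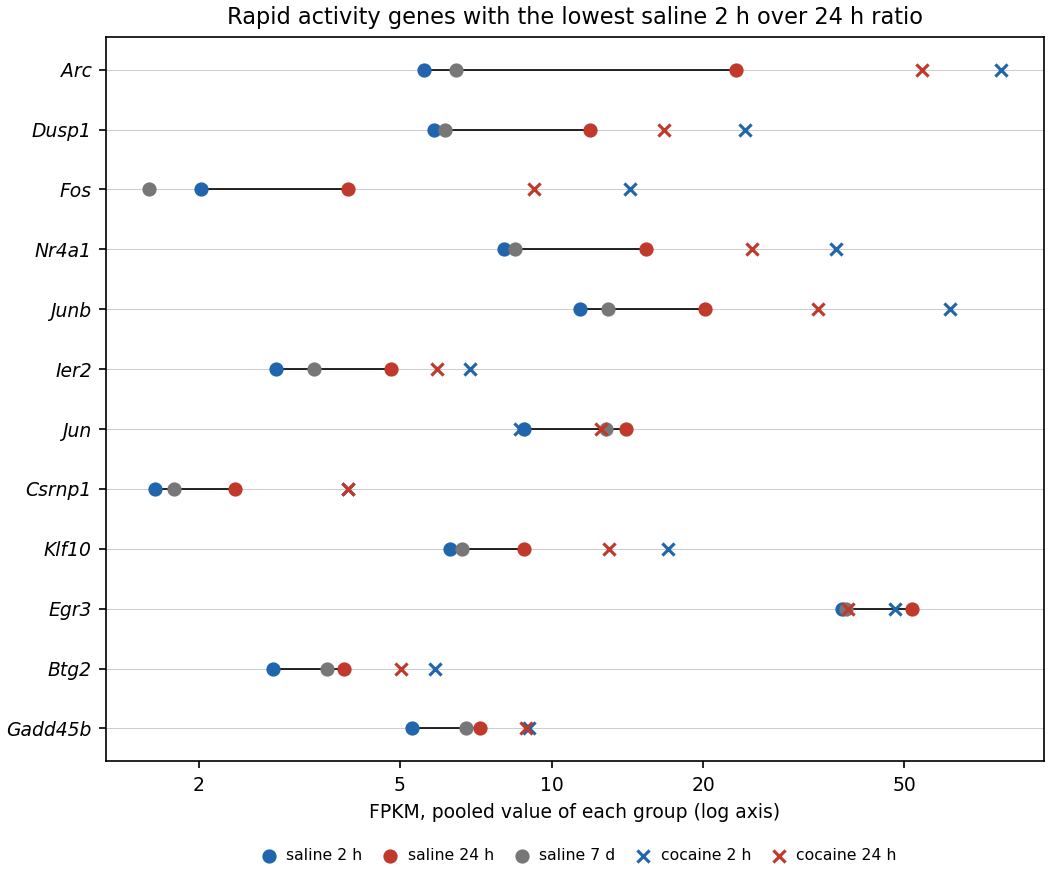
Pooled FPKM (log axis) of the 12 rapid activity genes with the lowest ratio of saline 2 h over 24 h, 1 row per gene. Circles are saline and crosses cocaine, and a line joins saline 2 h (blue) to saline 24 h (red), which is the right end in every row. Grey circles (saline 7 d) lie near the blue ones for Arc, Dusp1, Nr4a1 and Junb and near the red one for Jun.

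The remaining rapid genes were closer together, and most of them also had a ratio below 0. Of the 32 measured genes, 7 had a ratio above 0. Egr3, a zinc finger factor, was at 37.6 FPKM in saline 2 h and 51.9 in saline 24 h, with a log2 ratio of -0.44. Its relative Egr1 was at 41.9 and 35.1 FPKM, with a ratio of 0.27, and Nr4a3 was at 1.82 and 1.44 FPKM, the highest ratio of the list at 0.35. Npas4, a neuron-specific activity factor, was at 1.15 FPKM in saline 2 h and 1.38 in saline 24 h. Egr2, Amigo3 and Maff were measured below 1 FPKM and Atf3 had no tested locus at both times, so these 4 are in no count. Egr2 was at 0.466 FPKM in saline 2 h, 0.716 in saline 24 h and 0.206 in saline 7 d.

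Set beside saline 7 d, the rapid genes of saline 2 h were near its level, with a median log2 ratio of 2 h over 7 d of 0.00. The median of saline 7 d over 24 h was -0.38, a comparison that shares the saline 24 h libraries with the main one. Saline 7 d lay nearer saline 2 h than saline 24 h for 22 of 32 genes, where the share among all genes was 52.8% (6674 of 12630). The same held for 12 of 14 astrocyte markers and 12 of 16 meningeal fibroblast markers, whose medians for 2 h over 7 d were 0.06 and -0.03. The part of those cells in the activity genes was not tested. It also held for 9 of 10 neuron markers, 48 of 68 mitochondrial ribosomal proteins, 18 of 27 delayed activity genes and 13 of 18 MAPK feedback genes. In other lists it was rarer, with 21 of 79 cytosolic ribosomal proteins and 0 of 9 mitochondrial DNA genes. Such a share was thus not particular to the rapid genes. Since each value pools 2 libraries of 5 mice each, the data do not show whether both saline 24 h libraries or 1 of them carried the high values.

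In the cocaine mice 27 of the 32 genes had a ratio of 2 h over 24 h above 0, with a median of 0.42 on the log2 scale. These ratios too were centred on the median of all genes. Of the 32 genes 10 were higher by at least 1.5-fold, beside 174 higher and 243 lower of 12884 genes in all. Of the 7 genes lower in saline 2 h, 6 had a cocaine ratio above 0, 2 of them (Fos and Junb) past 1.5-fold, and Jun had -0.53. The saline and the cocaine ratio use different libraries but the same 2 tables. Fos was at 14.3 FPKM in cocaine 2 h and 9.24 in cocaine 24 h, Junb at 61.6 and 33.7 FPKM, and Nr4a1 at 36.7 and 25.0 FPKM. Because the saline value was low at 2 h and high at 24 h, the saline baseline also enters each cocaine to saline ratio. For Arc the log2 ratio of cocaine over saline was 3.77 at 2 h and 1.21 at 24 h, and for Fos it was 2.80 and 1.22.

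Among delayed activity genes, which follow the first wave and act on synapses and signaling, 27 of 31 were measured and the median log2 ratio was 0.01. Only Per2 was higher by 1.5-fold, and Nr4a2 and Nfil3 were lower, beside 1.11% higher and 1.55% lower among all genes. Nr4a2, a nuclear receptor of the Nr4a1 family, was at 1.44 FPKM in saline 2 h, 2.56 in saline 24 h and 1.46 in saline 7 d, with a ratio of -0.81. Bdnf, a neurotrophin, was at 7.55 and 7.61 FPKM, and Homer1, a postsynaptic scaffold, at 35.7 and 34.5 FPKM, with ratios of 0.01 and 0.07.

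Feedback inhibitors of MAP kinase signaling had a median of -0.09 over 18 of 20 genes (0.04 at 5 FPKM or more, and 0.06 against saline 7 d). By 1.5-fold 2 were lower and 0 higher, beside 1.55% and 1.11% of all genes. The lower ones were Dusp1, given above, and Dusp4, another MAP kinase phosphatase, at 1.48 FPKM in saline 2 h, 2.74 in saline 24 h and 1.14 in saline 7 d, with a ratio of -0.87. Dusp6, the phosphatase that acts on ERK, was at 14.1, 18.4 and 13.8 FPKM, with a ratio of -0.36. Spred2, an inhibitor of Raf activation, was at 19.6 FPKM in saline 2 h and 14.9 in saline 24 h, with the highest ratio of the list, 0.42.

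A few clock genes differed in the other direction. Of 21 core clock genes 19 were measured, 14 had a ratio above 0, 2 were higher by 1.5-fold and 0 were lower. Over all genes 1.11% were higher and 1.55% lower by 1.5-fold. The median log2 ratio of the list was 0.12. That median was 0.0023 among genes of at least 5 FPKM, which leaves out Per2 and Ciart, and 0.05 after correction for transcript length. Per2, a repressor of the loop, was at 2.59 FPKM in saline 2 h, 1.28 in saline 24 h and 1.07 in saline 7 d, with a ratio of 1.04. Ciart, a repressor of CLOCK and ARNTL, was at 8.22, 4.90 and 4.10 FPKM, with a ratio of 0.77. For both genes saline 2 h was the high one of the 3 saline groups, and the cocaine values had the same order, 6.00 and 3.09 FPKM for Per2 and 10.2 and 7.56 FPKM for Ciart at 2 h and 24 h.

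Other repressors in the loop had ratios above 0 without passing 1.5-fold. Bhlhe41 was at 7.47 FPKM in saline 2 h, 5.31 in saline 24 h and 3.92 in saline 7 d, with a log2 ratio of 0.51. Bhlhe40, which is also induced by neuronal activity, was at 36.2, 28.1 and 22.4 FPKM, with a ratio of 0.39. The nuclear receptors Nr1d1 and Nr1d2, which repress Arntl, had ratios of 0.29 and 0.37. Arntl itself was at 9.87 FPKM in saline 2 h, 11.4 in saline 24 h and 11.9 in saline 7 d, the lowest ratio of the list at -0.19.

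Per1 was nearly level between both saline groups. It was at 9.17 FPKM in saline 2 h, 9.46 in saline 24 h and 7.00 in saline 7 d, with a log2 ratio of -0.03. In the cocaine groups it was at 21.7 FPKM at 2 h and 16.2 at 24 h. Per1 responds to neuronal activity and to glucocorticoids as well as to the clock.

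Of 16 clock output genes 15 were measured, with a median of 0.07. By 1.5-fold 1 was higher and 1 lower, beside 1.11% and 1.55% of all genes. Dbp, a D-box factor that is driven directly by the clock, was at 39.3 FPKM in saline 2 h and 21.1 in saline 24 h, a ratio of 0.91, and at 42.0 and 28.3 FPKM in the cocaine groups. It had no tested locus under this name at 7 d. Nfil3, which represses the same D-box sites, was the lower one, at 2.95, 4.63 and 4.18 FPKM in saline 2 h, 24 h and 7 d, with a ratio of -0.63. Klf9, a factor that answers to both the clock and glucocorticoids, was at 55.7, 40.4 and 30.1 FPKM, with a ratio of 0.48, while the Dbp relatives Tef and Hlf had ratios of 0.07 and 0.06.

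**Figure D2:**
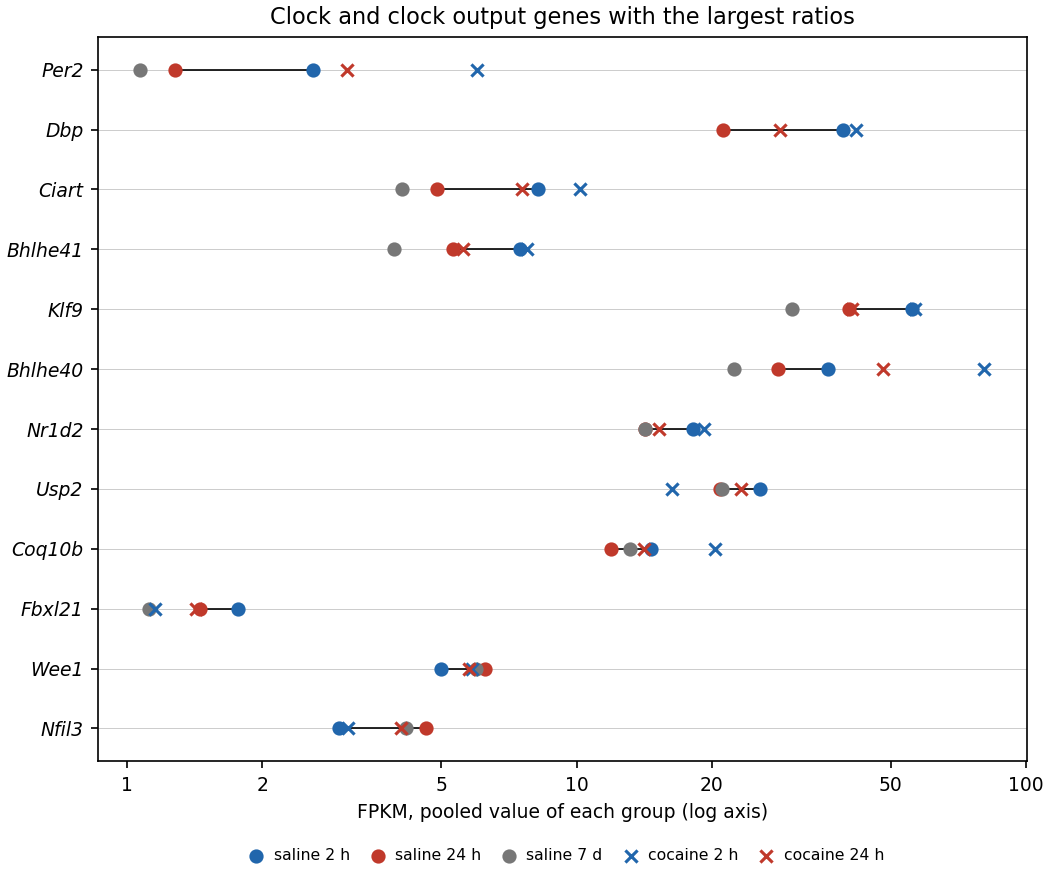
Pooled FPKM (log axis) of the 12 clock and clock output genes with the largest ratios, 1 row per gene. Circles are saline and crosses cocaine, and a line joins saline 2 h (blue) to saline 24 h (red). Blue lies right of red for all but Wee1 and Nfil3, and grey (saline 7 d) lies left of both for Per2, Ciart, Bhlhe41, Klf9 and Bhlhe40.

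Saline 7 d, unlike in the rapid activity genes, lay nearer saline 24 h than saline 2 h for most clock genes. It was nearer saline 2 h for 4 of 19 core clock genes and for 3 of 14 clock output genes, beside 52.8% of all genes. With saline 7 d in place of saline 24 h the median of the core clock list was 0.33, or 0.20 after correction for transcript length, against 0.12 and 0.05 for the main comparison. The relation with length was a Spearman rho across genes of -0.44 for saline 7 d over 24 h (10646 genes) and of 0.01 for saline 2 h over 24 h (10820 genes).

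Glucocorticoid targets stayed within 1.5-fold. Of 37 listed genes 34 were measured, 0 were past 1.5-fold in either direction, and the ratios ran from -0.46 to 0.48 around a median of 0.03. Fkbp5, a chaperone of the receptor and a standard readout of its activity, was at 6.02 FPKM in saline 2 h, 5.60 in saline 24 h and 4.80 in saline 7 d, with a ratio of 0.12. In cocaine 2 h it was at 9.40 FPKM.

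Among the other targets, Tsc22d3, which encodes the anti-inflammatory protein GILZ, was at 21.9 FPKM in saline 2 h and 18.3 in saline 24 h, Zbtb16 at 3.04 and 2.52 FPKM, and the kinase gene Sgk1 at 18.6 and 16.8 FPKM. Their log2 ratios were 0.28, 0.29 and 0.17. Mt1, a metal-binding protein, and Pdk4, a kinase that limits pyruvate oxidation, had the lowest ratio of the list, -0.46 each. Other stress programs were also near 0. Heat shock genes had a median of -0.01 (21 of 23 measured), with Hspb1 at -0.48 and Dnajb5 at 0.33 at the ends. Chaperones of the endoplasmic reticulum had a median of 0.00 (15 of 18 measured), from Sdf2l1 at -0.37 to Xbp1 at 0.25. In both lists 0 genes were past 1.5-fold.

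Some histone genes and 1 globin gene were also lower in saline 2 h by 1.5-fold, and their values were ordered differently over the groups. Of 65 replication-dependent histone genes 20 were measured and 17 had a ratio below 0, with a median of -0.44. By 1.5-fold 6 were lower and 0 higher, beside 1.55% and 1.11% of all genes. The 6 were histone H2B genes, the largest being Hist1h2bp, at 1.42 FPKM in saline 2 h, 2.81 in saline 24 h and 2.53 in saline 7 d, with a ratio of -0.96. Hist1h2bn was at 1.70, 3.29 and 3.31 FPKM, and Hist1h2bg at 6.83, 10.7 and 10.4 FPKM.

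For these genes saline 2 h was thus the low one of the 3 saline groups, with a list median of 0.06 for saline 7 d over 24 h. The median of cocaine 2 h over cocaine 24 h was -0.01. Histone copies are nearly identical in sequence, so that reads kept only when unique may be split unevenly among them, and single copies are uncertain. The libraries were enriched for poly(A) RNA, so the values are not a measure of histone transcripts without a poly(A) tail. Most of the listed copies, 36 of 65, had no tested locus at both times, and 9 were measured below 1 FPKM.

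Red blood cell genes had a median of -0.38 over 8 of 11 genes, with 6 below 0 and 2 above it, up to 0.10. By 1.5-fold 1 was lower, beside 1.55% of all genes. The median was -0.24 after correction for transcript length, and -0.06 against saline 7 d with the same correction. Hbb-bt, a beta globin, was at 40.4 FPKM in saline 2 h, 70.2 in saline 24 h and 64.8 in saline 7 d, and between 66.8 and 74.4 FPKM in the cocaine groups, with a saline ratio of -0.78. The alpha globins Hba-a1 and Hba-a2 had ratios of -0.53 and -0.52, and Alas2, the first enzyme of heme synthesis in red cells, had -0.47. Bpgm, a glycolytic enzyme that is not restricted to red cells, had a ratio of -0.01. The 4 globin genes were at their lowest of all 6 groups in saline 2 h.

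**Figure D3:**
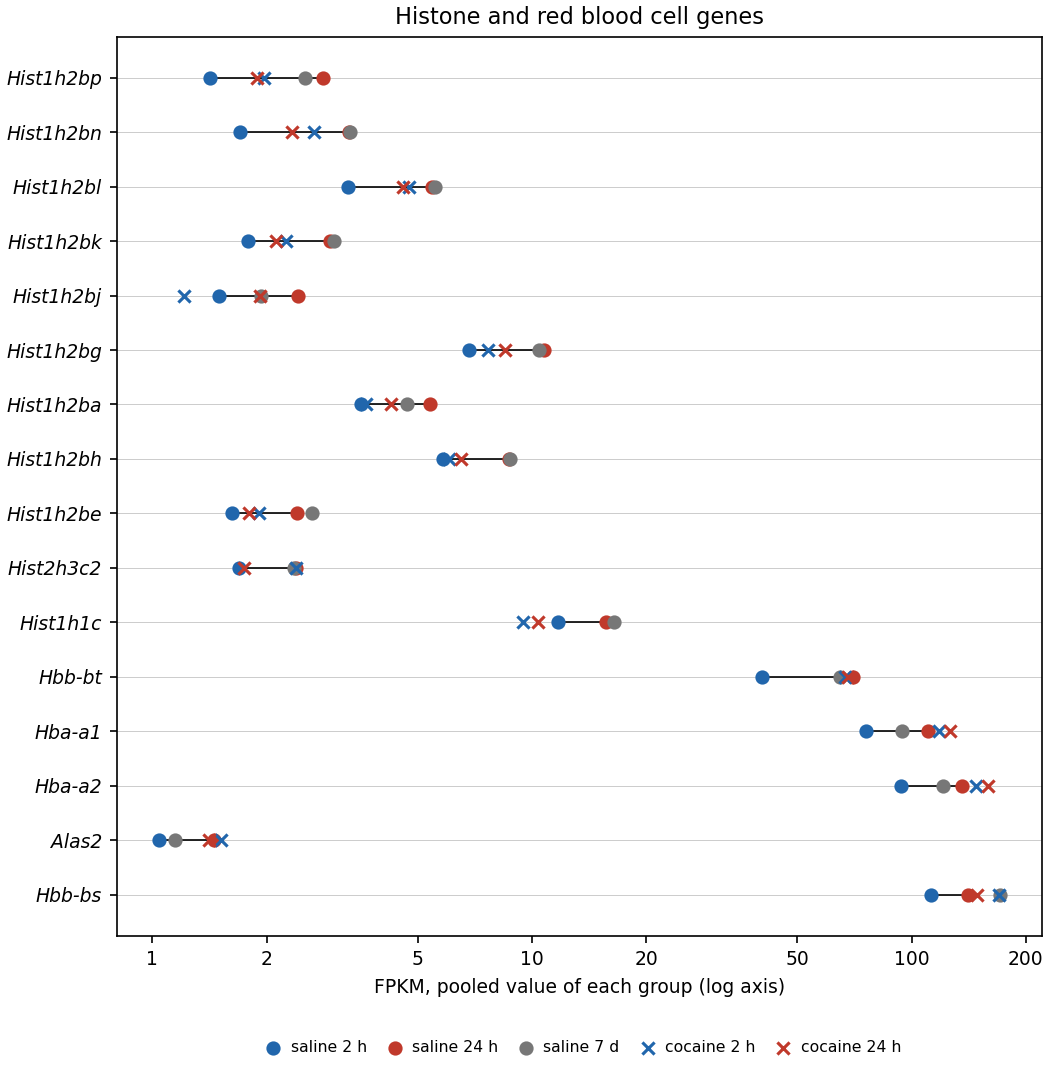
Pooled FPKM (log axis) of the 11 histone genes with the lowest ratios and of 5 red blood cell genes, 1 row per gene. Circles are saline and crosses cocaine, and a line joins saline 2 h (blue) to saline 24 h (red). Blue lies left of red in every row, and grey (saline 7 d) lies near red for the histones.

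Markers of the cells that make up the tissue were within 1.5-fold in nearly all cases, but several lists lay on 1 side of 0. In bulk tissue, fewer cells of a type and less RNA per cell cannot be told apart. Oligodendrocyte markers were below 0 for 12 of 12 measured genes (16 listed), with a median of -0.23 and summed levels of 652 FPKM in saline 2 h and 776 in saline 24 h. Mbp, the myelin basic protein, was at 393 and 482 FPKM. Astrocyte markers were below 0 for 14 of 14 measured genes (15 listed), with a median of -0.23, and Gfap, the intermediate filament of reactive astrocytes, was at 31.9 FPKM in saline 2 h, 41.3 in saline 24 h and 31.4 in saline 7 d. Meningeal fibroblast markers were below 0 for 16 of 16 genes, with a median of -0.27, summed levels of 236 and 275 FPKM, and Slc6a13, a transporter of the meninges, at 7.60 and 10.9 FPKM.

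Endothelial markers had a median of -0.09 (15 of 16 measured), with 5 above 0 and 10 below and a highest ratio of 0.165. The lowest was Cldn5, the tight junction protein of brain vessels, at 38.0 and 56.3 FPKM and a ratio of -0.55. Mural cell markers had -0.03 (11 of 12), with Pdgfrb at -0.23 and Rgs5 at 0.23. Microglia markers had -0.03 (15 of 15), with 7 above 0 and 8 below. Itgam was at -0.22 and Trem2 at -0.19, and the highest ratio of the list was 0.19. Interneuron genes had a median of -0.02 (19 of 20), with 7 above 0 and 12 below. Crh at -0.34, Sst at -0.28 and Htr3a at 0.23 were the largest in size. Cortical layer genes had a median of -0.01 (15 of 20), from Ctgf at -0.31 to Fezf2 at 0.20.

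Markers of neighbouring tissue were few, except those of striatal neurons, which were mostly slightly above 0. Of 14 striatal neuron markers 8 were measured, 6 with a ratio above 0 and 2 below, and the median was 0.09. Penk, Ppp1r1b and Tac1 had the largest ratios, 0.16, 0.17 and 0.22. Summed levels of the 8 genes were 172 FPKM in saline 2 h and 159 in saline 24 h. Drd2 and Isl1 had no tested locus at both times. Choroid plexus markers were measured for 3 of 14 genes, with Ttr, the main secreted protein of that tissue, at 1.90, 1.80 and 0.284 FPKM in saline 2 h, 24 h and 7 d. Olfactory bulb markers were measured for 3 of 11 genes (median 0.08), and the defining genes Eomes, Tbx21 and Th had none either. B cell and plasma cell genes were measured for 3 of 13 genes (median 0.03), with Igkc at 1.60 and 1.78 FPKM. The part that unequal cell shares had in the ratios of the activity and clock genes was not tested.

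**Figure D4:**
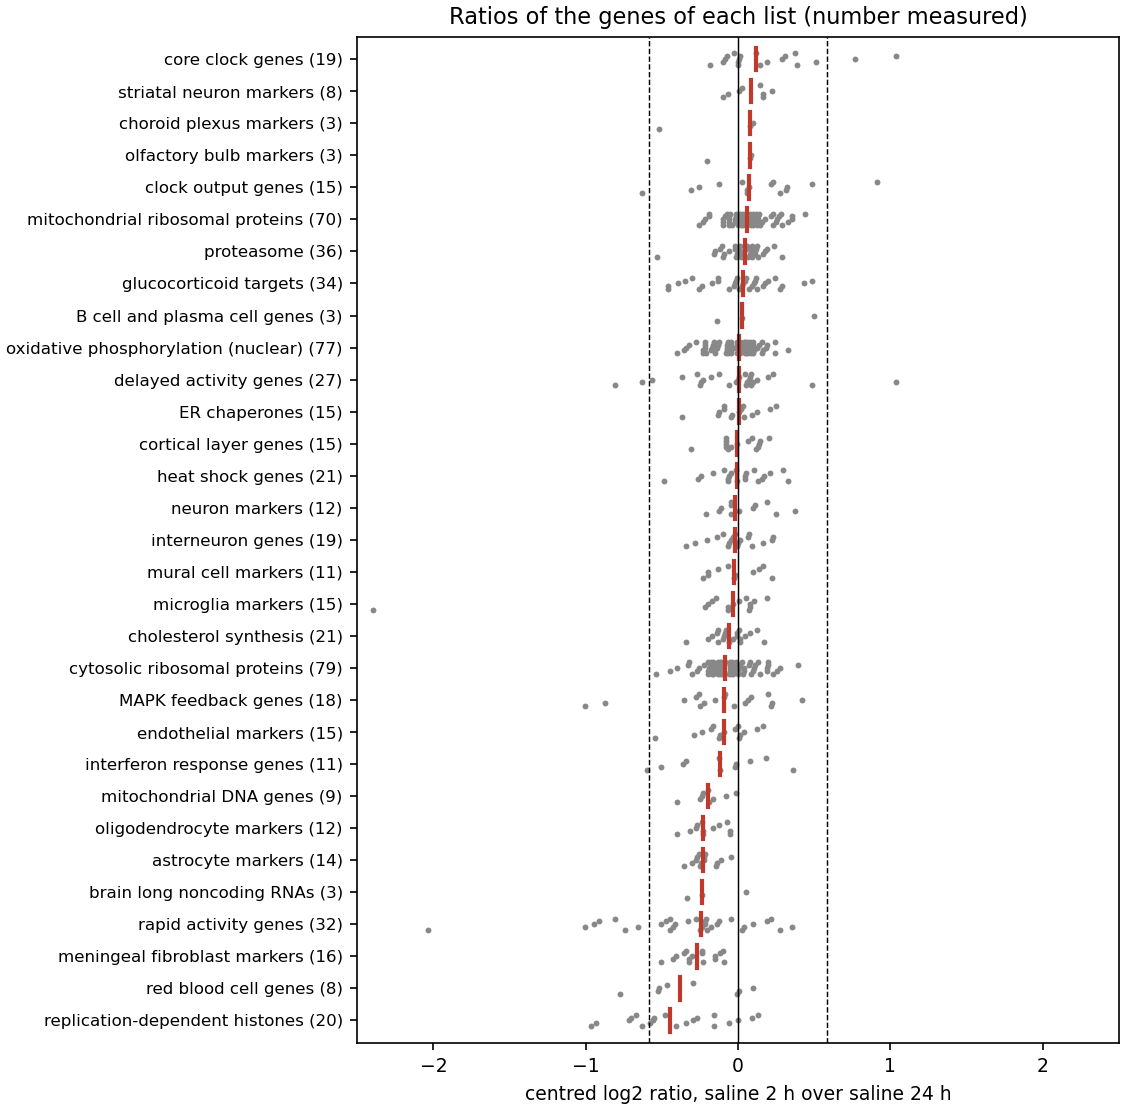
Centred log2 ratio of saline 2 h over saline 24 h for each measured gene (grey points) of the 31 lists, ordered by their median (red bars). Dashed lines mark 1.5-fold, and 1 gene lies beyond the axis and is drawn at -2.4. The core clock genes have the highest median, 0.12, and the replication-dependent histones the lowest, -0.44.

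Large housekeeping complexes were within 1.5-fold throughout. Nuclear oxidative phosphorylation genes had a median of 0.01 (77 of 80 measured), mitochondrial ribosomal proteins 0.06 (70 of 71), the proteasome 0.05 (36 of 38) and cytosolic ribosomal proteins -0.09 (79 of 85), with 0 genes past 1.5-fold in each. Rps21, a protein of the small ribosomal subunit, had the largest size among them, -0.54, at 650 and 955 FPKM. The proteasome subunit Psmb9, which belongs to the immunoproteasome, followed at -0.53, and Mrps30 was highest at 0.44.

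Genes of mitochondrial DNA were below 0 for 9 of 9 measured genes (15 listed), with a median of -0.20. Their summed level was 91719 FPKM in saline 2 h, 106282 in saline 24 h and 116431 in saline 7 d, and mt-Nd5, a subunit of complex I, had the lowest ratio, -0.40. Cholesterol synthesis genes had a median of -0.06 (21 of 22), with Insig1 at -0.20 and Nsdhl at 0.17. Interferon response genes had -0.12 (11 of 15), with Oasl2 lower by 1.5-fold at 1.20 FPKM in saline 2 h and 1.85 in saline 24 h. Brain long noncoding RNAs were measured for 3 of 14 genes, with Neat1 at -0.33, Malat1 at -0.24 and Snhg11 at 0.05.

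Over all genes the 2 saline groups were close. The quartiles of the 12928 centred log2 ratios were -0.11 and 0.10, the median size was 0.11, and 95% were within 0.44. In all, 143 genes were higher and 200 lower in saline 2 h by 1.5-fold, and 53 and 75 by 2-fold. There is no replicate error to set beside these sizes, and other ratios are given only as a scale. Saline 7 d over 24 h, which shares saline 24 h, had a median size of 0.15 with 95% within 0.54, and cocaine over saline at 24 h, within 1 table, had 0.083 and 0.36. The size that held 95% of the genes in the main ratio was 0.60 at 1 to 2 FPKM, 0.53 at 2 to 5 FPKM, 0.39 at 5 to 10 FPKM and 0.32 at 10 to 50 FPKM, so that genes of low level spread more widely.

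**Figure D5:**
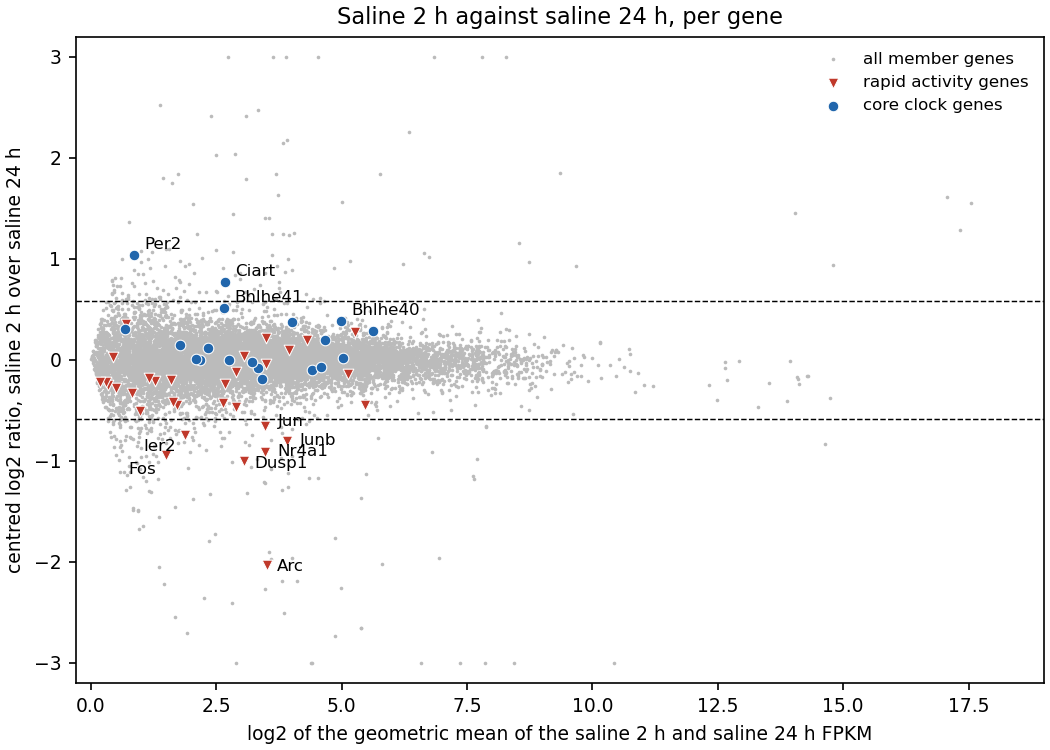
Centred log2 ratio of saline 2 h over saline 24 h against the log2 of the geometric mean FPKM of both groups, for 12928 genes (grey), with rapid activity genes as red triangles and core clock genes as blue circles. Dashed lines mark 1.5-fold, and 16 genes beyond 3 in size are drawn at the edge. Arc, at -2.03, lies lowest of the red triangles and Per2, at 1.04, highest of the blue circles.

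The largest ratios of all belonged to names whose number of loci differed between the tables. Cdk8, a kinase of the Mediator complex, was at 7.01 FPKM in saline 2 h and 17249 in saline 24 h on its longest locus, a log2 ratio of -11.25, but a second locus of the 24 h table with the same coordinates held 6.92 FPKM. Jarid2 (4.19 against 2178 FPKM, with 3.66 on its second locus) and Gphn (17.7 against 1547, with 18.5) had the same form. Ensa and Tmem261, at 7.75 and 4.30, had their longest 24 h locus elsewhere, at 1.02 and 1.504 FPKM. On the locus they had at 2 h they were at 199 and 29.5 FPKM in saline 24 h against 215 and 29.1 in saline 2 h.

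Filip1l and Cmss1 share 1 stretch of chromosome 16 with 1 to 3 loci per name, and had ratios of -11.44 and 11.21. Gm6055 was at 5663 and 8.66 FPKM, with 14.7 on a second 2 h locus. These extremes were read from the naming of loci in the tables, and the cocaine groups of the same tables had them too, such as 6.77 and 21629 FPKM for Cdk8. Of the 143 higher genes 106, and of the 200 lower genes 103, had a name not listed as protein-coding in RefSeq, against 1682 of 12928 in all. These counts include names that join several genes, coding or not, which were 4 of the higher, 2 of the lower and 432 of all.

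The remaining extremes were mostly predicted genes. Trbc2, a T cell receptor constant segment, had a ratio of 3.68 with values from 59333 to 3470000 FPKM in the groups. Gm24722, Gm3788, Gm25127, Gm27857 and Gm17571 had ratios from 1.85 to 3.03, and Gm24722, Gm27857 and Gm17571 were listed at 0 in cocaine 2 h. Gm22405, Gm26191, Gm24967 and Gm14541 had ratios from -2.66 to -2.41. BC024978 was at 2.34 FPKM in saline 2 h, 23.6 in saline 24 h and 3.06 in saline 7 d, and between 2.75 and 3.41 FPKM in the cocaine groups, so that saline 24 h alone was high.

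With only protein-coding names that had 1 matching locus in both tables (10574 genes, a restriction chosen after seeing these extremes), 32 genes (0.303%) were higher and 77 (0.728%) lower in saline 2 h by 1.5-fold, and 4 and 14 by 2-fold. The 7 rapid activity genes, Per2, Ciart and Dbp were all among them. The restriction does not remove a locus that 2 names share. Ciart had the same locus as BC028528, whose ratio was 0.75, and Dbp the same as Rpl18, whose ratio was -0.40. The genes below were picked for their size after their values were seen. After BC024978, the lowest was St7, at 5.02, 24.6 and 16.8 FPKM in saline 2 h, 24 h and 7 d, and the third was Arc. Abcc4, Pigl, Col19a1 and H2afy2 had ratios from -1.46 to -1.21, with similar ratios in cocaine from -1.44 to -0.95. Mfap2, Foxp4 and Auts2 had ratios of -1.26, -1.17 and -1.17 in saline, but of -0.14, -0.22 and -0.46 in cocaine. St7 had a ratio of 0.38 in cocaine. The loci of Abcc4, Col19a1 and H2afy2 differed slightly in span between the 2 h and 24 h tables, with 223528 and 225106 bases for Abcc4.

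The highest of this set were Theg, Per2 and Pyurf. Pyurf was at 17.3 FPKM in saline 2 h, 8.58 in saline 24 h and 13.0 in saline 7 d, and at 6.01 and 9.96 FPKM in cocaine 2 h and 24 h, the opposite order. Cisd3, a mitochondrial iron-sulfur protein, was at 49.9 FPKM in saline 2 h and between 25.7 and 27.9 FPKM in the other 5 groups. Polrmt, the RNA polymerase of mitochondria, was at 13.5 and 7.58 FPKM, with a ratio of 0.85 in saline and 0.53 in cocaine. Myc, a growth-related transcription factor that is also induced early, had a ratio of -0.90 in saline and 0.27 in cocaine.

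In this set, the ratio of cocaine 2 h over cocaine 24 h was past 1.5-fold in the same direction for 7 of the 32 higher genes and 18 of the 77 lower genes, and in the opposite direction for 1 and 4. Over all 10574 genes cocaine had 90 higher and 106 lower. Per2 and Vwa3a were among the 7, and Fos, Junb, Dusp4 and Nr4a2 were the 4 with the opposite order.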

How the data were processed

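RNA-seq of mouse PFC was analysed from the 3 deposited gene tables (2 h, 24 h and 7 d), each with 1 pooled FPKM for saline and 1 for cocaine. The submitters' processing notes name CASAVA 1.8.2, Trimmomatic 0.32, TopHat2 2.0.12, Cufflinks 2.2.1 and Cuffdiff, and the methods name poly(A) libraries, unique reads and mm9; the loci were used as GRCm38 coordinates, the build of the notes. FPKM values were normalized by the authors within each table. The tables' columns of fold change, test statistic, p and q for cocaine against saline were not used. Column names were ambiguous between cocaine and control, and the first value column was taken as saline from the paper's supplementary tables. No count or read depth per library is in these values, so depth and replicate spread are unknown, and no test was run.

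Names were joined between tables (longest locus of status OK, ties to the higher mean FPKM), kept at 1 FPKM or more in both saline groups, and log2 ratios were centred on their median with Python 3.11.15, pandas 2.3.3 and numpy 2.4.6 and plotted with matplotlib 3.10.9. The calculation was tested on simulated data. The members and the 31 gene lists were chosen with earlier results of these data known. Genes named were the 10 largest increases and decreases among loci of at least 300 bases with 1 name, list members past 1.5-fold in the activity, MAPK, clock and glucocorticoid lists, Fos, Arc, Per1, Per2, Dbp and Fkbp5, and the 3 largest changes of each other list; further genes were named after their values were seen. Alternatives were a pseudocount of 1, a minimum of 5 FPKM or none, the locus of highest FPKM, other centring, removal of the trend over 20 groups of transcript length (longest coding transcript, found for 83.7% of the genes), saline 7 d as comparator, and matched loci (overlap of at least 95%). Promoters were matched by symbol to the RefSeq table; Arc, Ier2 and Per2 had no entry. A few genes that the rule selects are not reported here.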

Additional observations from a re-analysis of the deposited data

Results flagged for a closer look

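The difference between 2 h and 24 h was past 1.5-fold in both saline and cocaine, in opposite directions, for 6 of the genes named by the rule, and this difference between treatments was not tested, since each group has 1 pooled value. Fos had a log2 ratio of 2 h over 24 h of -0.95 in saline and 0.63 in cocaine. Junb had -0.80 and 0.87, Dusp4 had -0.87 and 0.62, and Nr4a2 had -0.81 and 1.01, in the same order. The predicted genes Gm25127 (2.17 in saline and -0.82 in cocaine) and Gm3788 (2.42 and -5.46) were the other 2. Arc, Dusp1, Nr4a1 and Ier2 had opposite signs too, but their cocaine ratios, from 0.22 to 0.56, were within 1.5-fold. Pyurf, named after its values were seen, had 1.03 and -0.73.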

How the results depend on the processing

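No paired analysis was possible because each deposited value pools the libraries of a group, and for the same reason no replicate could be left out. The counts of genes higher and lower by 1.5-fold were 143 and 200 as reported. They were 89 and 115 on log2(FPKM + 1), 55 and 61 at 5 FPKM or more, 287 and 379 with no minimum, 42 and 92 with the length trend taken out (only genes with a length), and 32 and 77 with matched loci. By 2-fold they were 53 and 75 as reported, with 49 lower on log2(FPKM + 1), 27 and 35 at 5 FPKM or more, 108 and 149 with no minimum, 8 and 21 with the length trend taken out, and 4 and 14 with matched loci. With saline 7 d as comparator and its length trend taken out, 101 genes were lower by 1.5-fold, and 22 were higher and 19 lower by 2-fold. The median of the rapid activity genes was 0.0022 against saline 7 d, or 0.023 with the trend taken out. The median of the core clock genes was 0.33 against saline 7 d, 0.05 with the length trend taken out and 0.0023 at 5 FPKM or more, a minimum that Per2 and Ciart do not pass. Against saline 7 d, without and with the trend taken out, the sign turned for 24 of 105 and 24 of 91 named genes and for 14 of 31 list medians each. Most lay within 1.5-fold, such as Ctgf (from -0.31 to 0.32 and 0.34), Gfap (from -0.35 to 0.02 and 0.03) and the MAPK feedback median. Among genes past 1.5-fold it turned for Fos (0.34 and 0.40), Dusp4 (0.37 and 0.38), Ensa (-0.096 and -0.061), Gm17571 (-0.60 and -0.35), Jarid2 (0.31 and 0.19) and Trbc2 (-2.22 and -1.97), and without the trend for Gm3788 (-0.68) and Tmem261 (-0.42). The cause was not tested. Centring and the choice of locus moved no count by over 1.5 times.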
